A study of Mus musculus with 6 samples.

Results

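The Bcl2 family decides whether a cell keeps its mitochondria intact or dies by apoptosis, and 10 of its genes are described here in blood neutrophils of mice with and without experimental periodontitis. The 10 genes were chosen by name from a table of 29097 mouse genes. They are the anti-apoptotic *Mcl1*, *Bcl2*, *Bcl2l1* and the gene copies *Bcl2a1a*, *Bcl2a1b* and *Bcl2a1d*, the BH3-only *Bcl2l11* and *Bid*, and the effectors *Bax* and *Bak1*, and all 10 have a row in the table. All mice were C57BL/6 males of 8 weeks. In the group with ligature-induced periodontitis (LIP, labelled Lig), silk was tied around the upper and lower second molars on both sides for 14 d. The ligature provokes inflammation of the tissue around the teeth, and Ctrl mice had none. Cells carrying CD45, CD11b and Ly6G were sorted from peripheral blood, the cells of 5 mice were pooled for each library, and 3 libraries per group were made with Smart-seq2, which copies full-length mRNA and amplifies it by PCR. A library is thus a pool, and the spread between libraries is a spread between pools, not between single mice.

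Proteins of this family meet at the outer mitochondrial membrane. The effectors BAX and BAK can form pores there, through which cytochrome c leaves and switches on the caspases that dismantle the cell. The anti-apoptotic members hold the effectors in check, and the BH3-only members, which sense stress and receptor signals, bind the anti-apoptotic proteins or act on the effectors directly. Neutrophils are short-lived and enter apoptosis unless survival signals such as G-CSF and GM-CSF reach them. They are known to depend on MCL1, a protein that is quickly degraded and must be made anew, and to carry the products of the *Bcl2a1* genes, whereas BCL2 is known mainly from lymphocytes and is scarce in mature neutrophils.

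The libraries were of similar depth, with 53059029, 54358483 and 52301060 gene-assigned reads for Ctrl replicates 1, 2 and 3 and 56504173, 57262379 and 52186555 for those of LIP. The sort label was checked against 22 genes of mature neutrophils, all of which were detected, and *S100a9*, the most abundant of them, reached an FPKM (reads per gene length and library depth, as the authors scaled them) of 7101 ± 738 in Ctrl and 23491 ± 753 in LIP (mean ± SD, 3 libraries each). The libraries also held transcripts that define other cells. *Cd74*, the most abundant of 15 B cell markers, stood at an FPKM of 7225 ± 344 in Ctrl and 1209 ± 32.0 in LIP, and transcripts of haemoglobin held a share of 14.8 ± 0.237% in Ctrl but 1.58 ± 0.0318% in LIP (mean ± SD of 3 libraries). In such bulk samples, fewer cells of a type and less RNA per cell cannot be told apart.

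*Mcl1* was by far the most abundant of the 10 genes, and on the TMM scale it was higher in LIP (scaling on neutrophil genes turns this direction), while *Bcl2* was lower. Of the 9 genes that reached the minimum for testing, an average FPKM of 1 or more, 8 differed between the groups at an adjusted p under 0.05 in edgeR's quasi-likelihood test with TMM scaling, where 53.6% of all 10440 genes tested did. The 6 higher in LIP with TMM were *Mcl1*, *Bcl2l1*, *Bcl2a1a*, *Bcl2a1b*, *Bcl2l11* and *Bid* (26.5% of all genes were higher), each of which neutrophil-gene scaling turns to lower, and the 2 lower were *Bcl2* and *Bax* (27.2% of all genes were lower). The median log2 fold change was 0.61 over the 9 genes and -0.09 over all genes tested. *Bcl2a1d* did not pass, and *Bak1*, below the minimum in both groups, was not tested. Each of the 9 tested genes had a mean FPKM above 1 in Ctrl and in LIP, so none was tested because of 1 group alone. With TMM scaling, the 3 LIP values lay apart from the 3 Ctrl values in 8 of the 9 genes, as they did in 63.4% of all genes.

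These directions depend in part on how libraries of such different composition are put on one scale. With library totals in place of TMM, 5 of the 9 genes passed (58.1% of all genes), with *Mcl1*, *Bcl2l1* and *Bid* higher and *Bcl2* and *Bax* lower. With the libraries scaled on the summed counts of the 22 mature neutrophil genes, all 9 were lower in LIP, as were 88.6% of all genes. *S100a8* and *S100a9* held the largest parts of that sum. In CPM (counts relative to the TMM-scaled library size), they averaged 4709 and 3599 of 17991 in Ctrl. In LIP they averaged 18148 and 14714 of 64419. Log2 fold changes of the 22 genes ran from 0.39 to 2.51 with TMM. The scalings shift every gene by nearly the same amount, and the middle value over all genes (median log2 fold change) was -0.09 with TMM, -0.05 with median-of-ratios factors, -0.42 with library totals, -0.62 with totals that leave out the haemoglobin genes and -1.94 with the neutrophil genes. Set against the median of all genes under TMM, *Mcl1* lay 1.49 above it on the log2 scale, *Bcl2l1* 1.23, *Bid* 1.21, *Bcl2a1a* 0.73, *Bcl2a1b* 0.70, *Bcl2l11* 0.59 and *Bcl2a1d* 0.46. *Bax* had a difference of -0.33 from that median and *Bcl2* one of -1.63.

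**Figure D1:**
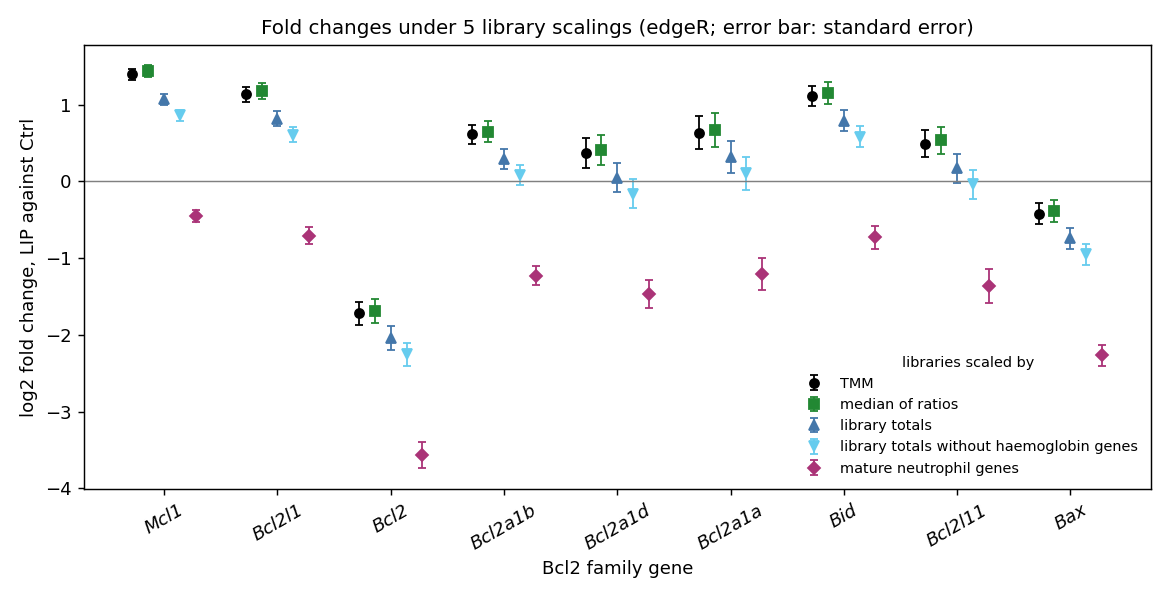
Log2 fold change of 9 Bcl2 family genes between LIP and Ctrl (vertical axis) for each gene (horizontal axis) under 5 ways of scaling the libraries, from edgeR, with bars for the standard error. *Mcl1* runs from 1.43 with median-of-ratios factors to -0.45 with the mature neutrophil genes, where all 9 genes are below 0, while *Bcl2* and *Bax* are below 0 under all 5.

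By length-corrected level, *Mcl1* stood first in both groups and *Bcl2a1b* second, with no overlap between them in the 3 libraries of either group. In Ctrl, *Bax* followed with an FPKM of 41.7 ± 4.23 (SD, n = 3), then *Bcl2a1d* with 27.5 ± 3.97, *Bcl2l1* with 24.3 ± 0.340, *Bcl2a1a* with 19.5 ± 1.99 and *Bid* with 16.2 ± 1.67. The values of *Bcl2a1d* and *Bcl2l1* overlapped there, as did those of *Bcl2a1a* and *Bid*. *Bcl2* with 8.89 ± 0.898, *Bcl2l11* with 6.19 ± 1.47 and *Bak1* with 0.782 ± 0.113 closed the order without overlap. In LIP, *Bcl2l1* came next with 43.1 ± 0.937, and *Bcl2a1d* (28.7 ± 2.64), *Bid* (28.3 ± 3.07), *Bax* (25.2 ± 1.80) and *Bcl2a1a* (24.5 ± 4.50) followed, each overlapping its neighbour in this order. *Bcl2l11* with 7.02 ± 0.898 then ranked above *Bcl2* with 2.18 ± 0.277, the reverse of their order in Ctrl, and *Bak1* was again last with 0.932 ± 0.163 (FPKM, SD, n = 3).

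**Figure D2:**
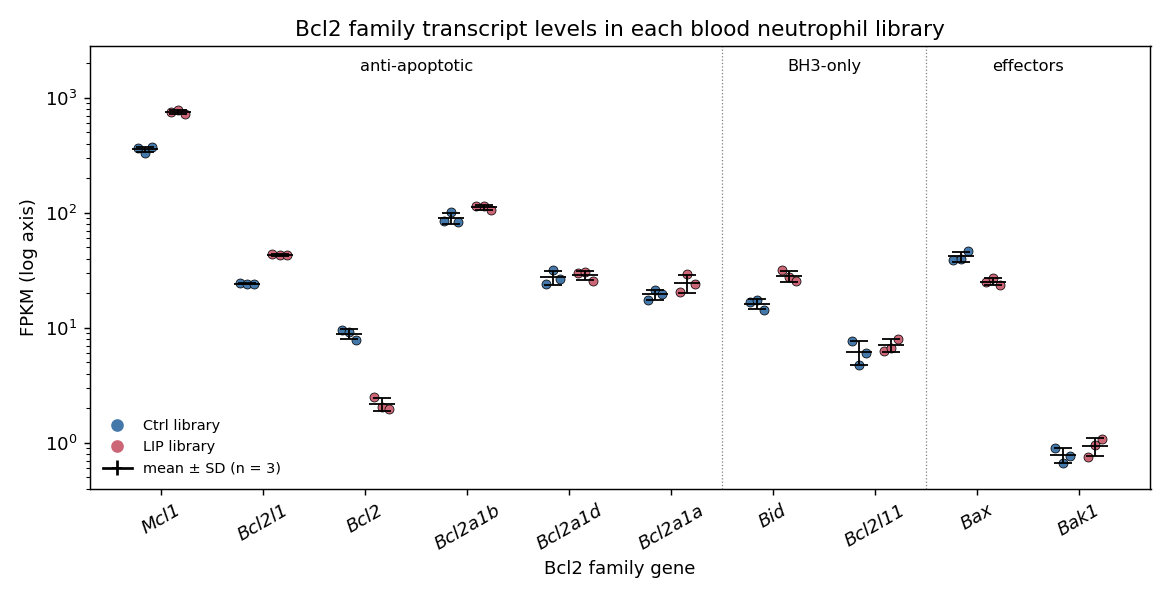
FPKM on a log axis (vertical) of the 10 Bcl2 family genes (horizontal) in each Ctrl and LIP library, with mean and SD over 3 libraries. *Mcl1* lies between 333 and 371 in Ctrl and between 721 and 790.5 in LIP, and *Bcl2* is the gene whose LIP values lie furthest below its Ctrl values on this axis.

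*Mcl1* (ENSMUSG00000038612, chromosome 3 from 95658788 to 95663176 on the plus strand, GRCm38) encodes the labile guardian on which neutrophils rely. Its level was 1189, 1120.1 and 1232 CPM (counts relative to the TMM-scaled library size) in the Ctrl libraries. In the LIP libraries it was 3108, 3233 and 2948 CPM. All 3 LIP values lay far above all 3 Ctrl values, and the libraries of a group were close to each other. The gene was higher in LIP (log2 fold change 1.39, standard error 0.0750, adjusted p = 3.16e-07, edgeR with Benjamini-Hochberg adjustment), a fold of 2.62, and it passed as higher under library totals (1.07) and in all 6 fits that left out 1 library, from 1.36 to 1.43, but was lower with neutrophil-gene scaling (-0.45). The FPKM values, which the authors scaled in their own way, read 365, 333 and 371 in Ctrl and 753, 790.5 and 721 in LIP. They too did not overlap. *Mcl1* overlaps no other gene of the table.

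*Bcl2l1* (ENSMUSG00000007659, chromosome 2 from 152780668 to 152831728 on the minus strand) encodes BCL-XL, a more stable guardian. It measured 108, 109 and 107 CPM in Ctrl. It measured 245, 234 and 233 CPM in LIP. The Ctrl values were nearly identical, the LIP values stood clearly apart above them, and the gene was higher in LIP (log2 fold change 1.13, standard error 0.0988, adjusted p = 5.9e-06, edgeR), except with neutrophil-gene scaling, where it was lower (-0.71). It kept its call when any single library was left out.

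*Bcl2* (ENSMUSG00000057329, chromosome 1 from 106538178 to 106714274 on the minus strand), the founding member of the family and a guardian prominent in lymphocytes, went the other way. Its level was 84.2, 82.3 and 70.3 CPM in Ctrl. Its level was 27.6, 22.5 and 21.8 CPM in LIP. Every LIP library was well below every Ctrl library, and the gene was lower in LIP (log2 fold change -1.72, standard error 0.154, adjusted p = 7.47e-06, edgeR), under every scaling tried, with -2.04 for library totals and -3.57 for neutrophil-gene scaling. It stayed lower in the 6 fits without 1 library, from -1.83 to -1.66. *Bcl2* shares 558 exon bases with *D630008O14Rik* on the opposite strand, whose mean FPKM was 0.296. Markers of lymphocytes moved in the same direction in these libraries. All 15 B cell genes were lower in LIP (median log2 fold change -2.57), as were all 13 T cell genes that reached the minimum in both groups (median -2.29), and their part in the level of *Bcl2* was not tested.

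The *Bcl2a1* genes are near-identical copies on chromosome 9 that encode A1, a guardian induced by inflammatory signals. *Bcl2a1a* lies from 88956900 to 88962419, *Bcl2a1b* from 89199209 to 89207827 and *Bcl2a1d* from 88723285 to 88731914. Their coding sequences of 519 bases differ at 11 positions between *Bcl2a1a* and *Bcl2a1b* (97.9% identity), at 7 between *Bcl2a1a* and *Bcl2a1d* (98.7%) and at 6 between *Bcl2a1b* and *Bcl2a1d* (98.8%). Of all 150-base stretches of a transcript, the length of 1 read, 28.2% in *Bcl2a1a*, 14.2% in *Bcl2a1b* and 30.3% in *Bcl2a1d* also occur in another copy, so the counting could divide reads between them, and their single values are uncertain. The first 90 coding bases are shown because they hold 6 of the 12 positions at which the copies are not all alike, and capitals mark those positions (GENCODE transcripts on GRCm38, 5′ to 3′).
Bcl2a1a (chr9:88957051-88957140, plus strand): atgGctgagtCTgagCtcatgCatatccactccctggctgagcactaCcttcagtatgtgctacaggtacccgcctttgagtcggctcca
Bcl2a1b (chr9:89199360-89199449, plus strand): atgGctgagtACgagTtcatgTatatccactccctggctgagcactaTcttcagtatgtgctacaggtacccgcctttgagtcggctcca
Bcl2a1d (chr9:88731630-88731719, minus strand): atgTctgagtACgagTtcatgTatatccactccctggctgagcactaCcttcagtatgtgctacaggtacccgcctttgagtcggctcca

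*Bcl2a1b* carried most of the reads of the 3 copies, 64.9 ± 1.38% in Ctrl and 67.0 ± 1.77% in LIP (mean ± SD, 3 libraries each), shares that overlapped between the groups. Summed over the copies, the level was 99.1, 126 and 105 CPM in Ctrl. The sum was 163, 173 and 152 CPM in LIP. The groups did not overlap on this scale, though the second Ctrl library came near the lowest LIP library, and summed FPKM values did overlap. Fitted as 1 gene with TMM, the copies were higher in LIP (log2 fold change 0.57, standard error 0.125, adjusted p = 0.00334, edgeR). Singly, *Bcl2a1b* measured 65.7, 82.0 and 66.6 CPM in Ctrl and 112, 113 and 102 in LIP. Its groups were apart, and it was higher in LIP with TMM (log2 fold change 0.61, standard error 0.129, adjusted p = 0.0026, edgeR), did not pass under library totals (0.29, adjusted p = 0.0668, edgeR) or totals that leave out haemoglobin (0.08) and was lower with neutrophil-gene scaling (-1.23). *Bcl2a1b* shares 401 exon bases with *Gm29094* on the same strand, whose mean FPKM was 0.660.

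*Bcl2a1a* measured 13.6, 17.3 and 15.7 CPM in Ctrl and 20.2, 28.7 and 23.4 in LIP. The values were apart but close, and on the FPKM scale they overlapped. It passed with TMM as higher (log2 fold change 0.63, standard error 0.215, adjusted p = 0.0294, edgeR), did not pass under library totals (0.32) and was lower with neutrophil-gene scaling (-1.21). The call was lost without Ctrl replicate 1 (0.55), Ctrl replicate 3 (0.64), LIP replicate 2 (0.49) or LIP replicate 3 (0.66). It was lost as well with totals that leave out haemoglobin (0.11), in limma with a pseudocount of 1 (0.31) or 0.1 (0.32), without the filter on low genes (0.67) and with a minimum FPKM of 5 (0.47). *Bcl2a1d* measured 19.7, 27.0 and 22.4 CPM in Ctrl and 31.0, 31.7 and 26.6 in LIP. Its groups overlapped, and with TMM it did not pass (log2 fold change 0.37, standard error 0.190, adjusted p = 0.125, edgeR), whereas it was at -0.16 with totals that leave out haemoglobin, without a call, and lower with neutrophil-gene scaling (-1.47). A further copy, *Bcl2a1c*, had reads in 1 Ctrl library alone, at an FPKM of 0.234.

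Of the BH3-only members, *Bid* (ENSMUSG00000004446, chromosome 6 from 120891930 to 120916853 on the minus strand) encodes the protein that caspase-8 cleaves and that links death receptors to the mitochondria. It measured 57.2, 61.0 and 49.4 CPM in Ctrl. It measured 136, 117 and 109 CPM in LIP. Every LIP library was well above every Ctrl library, and the gene was higher in LIP (log2 fold change 1.11, standard error 0.136, adjusted p = 6.75e-05, edgeR) in all 6 fits without 1 library and under library totals (0.79), but lower with neutrophil-gene scaling (-0.73). *Bid* shares 628 of its 3550 exon bases with *Bcl2l13* on the opposite strand, a relative with a mean FPKM of 2.02 against 22.3 for *Bid*, and reads from the shared stretch cannot be assigned with certainty.

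*Bcl2l11* (ENSMUSG00000027381, chromosome 2 from 128126038 to 128162547 on the plus strand) encodes BIM, which is induced when growth factors are withdrawn. It measured 59.2, 38.0 and 47.3 CPM in Ctrl. It measured 61.1, 64.7 and 77.2 CPM in LIP. The Ctrl values were widely spread, with the highest just below the lowest LIP value, and on the FPKM scale the groups overlapped. The gene passed with TMM as higher (log2 fold change 0.49, standard error 0.178, adjusted p = 0.0381, edgeR), but did not pass under library totals (0.17), was at -0.0397 with totals that leave out haemoglobin and was lower with neutrophil-gene scaling (-1.36). The call was also lost without Ctrl replicate 2 (0.37), Ctrl replicate 3 (0.48), LIP replicate 2 (0.52) or LIP replicate 3 (0.39). *Bcl2l11* lost it too in limma with a pseudocount of 1 (0.17) or 0.1 (0.20), without the filter on low genes (0.52), with filterByExpr (0.53) and with a minimum FPKM of 5 (0.32).

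The effectors differed widely in level. *Bax* (ENSMUSG00000003873, chromosome 7 from 45461697 to 45466898 on the minus strand), which waits in the cytosol until it is activated, measured 58.1, 62.1 and 71.4 CPM in Ctrl. It measured 47.6, 51.0 and 44.2 CPM in LIP. All LIP values lay below all Ctrl values, by a narrower margin than for *Bcl2*. It was lower in LIP (log2 fold change -0.42, standard error 0.138, adjusted p = 0.0248, edgeR) and had a negative sign under every scaling tried, with -0.74 for library totals and -2.27 for neutrophil-gene scaling. The call with TMM was lost without Ctrl replicate 3 (-0.34), LIP replicate 1 (-0.42) or LIP replicate 3 (-0.37), and also without the filter on low genes (-0.39) and with filterByExpr (-0.38). *Bak1* (ENSMUSG00000057789, chromosome 17 from 27019810 to 27029009 on the minus strand), which sits in the mitochondrial membrane, measured 2.08, 1.60 and 1.82 CPM in Ctrl, from 125, 96 and 106 reads. It measured 2.21, 2.74 and 3.13 CPM in LIP, from 111, 140 and 148 reads. The CPM values were apart by a small margin and the FPKM values overlapped. Without the filter on low genes it did not pass (log2 fold change 0.59, standard error 0.486, adjusted p = 0.423, edgeR). *Bak1* shares 437 of its 2407 exon bases with *Ggnbp1* and 177 with *Gm50253*, both on the opposite strand. Their mean FPKM was 0.0929 and 0.305, against 0.857 for *Bak1*, and reads from the shared stretches cannot be assigned with certainty. *Bax* shares 192 exon bases with *Gm45808* on the same strand, whose mean FPKM was 0.0343.

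Ratios between genes of the same library do not depend on how the library is scaled, and they are given as a description without a test. They can still differ with the mix of cells in a library, and the part of that mix was not tested. The FPKM of the 6 anti-apoptotic genes summed to 525, 521 and 533 in Ctrl and to 964, 1010.4 and 919.7 in LIP. That of the 2 BH3-only genes summed to 22.4 ± 2.13 in Ctrl and 35.3 ± 2.33 in LIP, and that of the 2 effectors to 42.5 ± 4.21 and 26.1 ± 1.75 (mean ± SD, 3 libraries each). The ratio of the anti-apoptotic to the effector sum was 13.3, 12.8 and 11.3 in Ctrl and 37.4, 36.1 and 37.5 in LIP. The groups were far apart in this ratio, with LIP the higher. *Bax* made up most of the effector sum, with a mean FPKM of 41.7 in Ctrl and 25.2 in LIP. *Mcl1* made up most of the anti-apoptotic sum, so this ratio mostly reflects *Mcl1* and *Bax*. Against the BH3-only sum the anti-apoptotic sum stood at 23.6 ± 2.43 in Ctrl and 27.4 ± 2.07 in LIP (mean ± SD, 3 libraries each), and there the libraries of the groups overlapped. *Mcl1* made up 67.6 ± 3.29% of the anti-apoptotic sum in Ctrl and 78.3 ± 0.106% in LIP, without overlap.

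Single pairs, picked after their values had been seen, were as follows. *Mcl1* over *Bax* was 9.43, 8.32 and 7.96 in Ctrl and 30.1, 29.3 and 30.8 in LIP. *Bcl2l1* over *Bcl2* was 2.56, 2.65 and 3.04 in Ctrl and 17.7, 20.8 and 21.4 in LIP. Both ratios were higher in every LIP library than in any Ctrl library. *Mcl1* over *Bid* was 21.6, 19.1 and 25.9 in Ctrl and 23.8, 28.7 and 28.0 in LIP, and *Mcl1* over *Pmaip1*, whose product NOXA binds MCL1, was 9.27 ± 1.98 and 10.3 ± 0.908 (mean ± SD). In both pairs the groups overlapped. Against *Csf3r*, the G-CSF receptor gene and a neutrophil marker, *Mcl1* stood at 0.908, 1.29 and 0.957 in Ctrl and 0.736, 0.783 and 0.732 in LIP. This ratio was lower in every LIP library, opposite in direction to *Mcl1* over *Bax*.

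**Figure D3:**
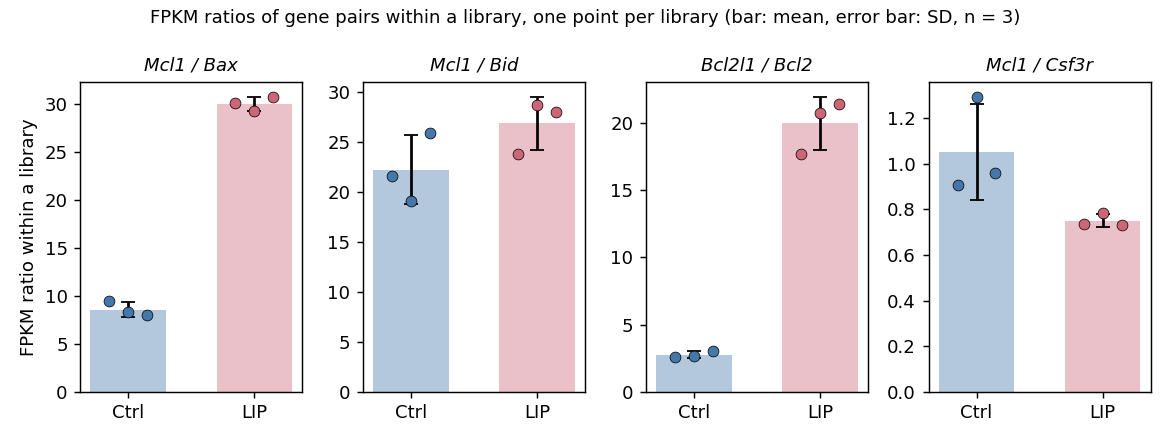
FPKM ratios (vertical axes) of 4 gene pairs within each library, by group (horizontal axes), with bars for the mean, error bars for the SD over 3 libraries and points for the libraries. *Mcl1* over *Bax* and *Bcl2l1* over *Bcl2* are higher in LIP, *Mcl1* over *Bid* overlaps between the groups, and *Mcl1* over *Csf3r* is lower in LIP, at 0.750 ± 0.0282 against 1.05 ± 0.210.

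Of 62 other genes of the apoptosis pathway, 61 have a row in the table and 47 were tested. In edgeR 22 of the 47 were higher in LIP (26.5% of all genes), 7 lower (27.2% of all genes) and 18 did not pass, and the median log2 fold change was 0.31, against -0.09 over all genes. With neutrophil-gene scaling 0 were higher and 39 lower, where 88.6% of all genes were lower, and with library totals 17 were higher and 12 lower, where 58.1% of all genes passed in either direction. The log2 fold changes and counts of each group below are from edgeR with TMM, to be read beside the 26.5% higher and 27.2% lower of all genes, and every gene named as higher changed sign with neutrophil-gene scaling except *Naip2* and *Csf2rb*, which did not pass under it.

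Of 6 further BH3-only genes, 4 were tested and 2 were higher. *Pmaip1* had an FPKM of 39.8 ± 9.56 in Ctrl against 73.7 ± 7.27 in LIP (mean ± SD, 3 libraries each), was higher in all 3 LIP libraries than in any Ctrl library, and passed as higher (log2 fold change 1.20, standard error 0.169, adjusted p = 0.000187, edgeR). *Bad*, whose product is silenced by survival kinases, was higher by 0.90 (adjusted p = 0.0113, edgeR) but did not pass under library totals (0.58) or totals that leave out haemoglobin (0.37). *Bbc3*, which encodes the p53 target PUMA, had a log2 fold change of -0.34 and did not pass (adjusted p = 0.12, edgeR), though it was lower under library totals (-0.65, adjusted p = 0.008, edgeR), totals that leave out haemoglobin (-0.86), neutrophil-gene scaling (-2.17), limma with a pseudocount of 1 (-0.60) or 0.1 (-0.64) and a minimum FPKM of 5 (-0.50). *Bmf* did not pass (0.22, adjusted p = 0.546, edgeR), and *Bik*, with 17, 12 and 0 reads in Ctrl and none in LIP, was below the minimum for testing, and at the limit of 3 reads taken for a count of 0 its level in a LIP library could be up to 0.0635 CPM. Of 7 further relatives of the family 4 were tested, of which the mitophagy gene *Bnip3* was higher (log2 fold change 1.57, standard error 0.134, adjusted p = 4.95e-06, edgeR), and its relative *Bnip3l*, which clears mitochondria from maturing red cells, was lower (log2 fold change -0.43, standard error 0.111, adjusted p = 0.00773, edgeR). *Bcl2l12* was lower as well (-0.99, adjusted p = 0.0436, edgeR), a call lost without Ctrl replicate 2 (-0.91), Ctrl replicate 3 (-0.79), LIP replicate 1 (-0.997) or LIP replicate 2 (-0.74), with median-of-ratios factors (-0.95), without the filter on low genes (-0.96) and with filterByExpr (-0.95).

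Downstream of the mitochondria, 11 genes of the apoptosome and caspases were tested, of which 3 were higher and 2 lower (median -0.09). The apoptosome scaffold *Apaf1* (1.18) and the initiator *Casp9* (0.78) were among the higher, but *Casp9* did not pass under library totals (0.46), and its call was lost without Ctrl replicate 1 (0.65), Ctrl replicate 2 (0.74) or LIP replicate 2 (0.66). *Casp9* did not pass either with totals that leave out haemoglobin (0.25), in limma with a pseudocount of 1 (0.38) or 0.1 (0.47) or without the filter on low genes (0.81). *Diablo* (-0.67) and *Endog* (-1.49), whose products leave mitochondria during apoptosis, were lower, but both calls were lost without the filter on low genes (-0.63 and -1.45). *Cycs*, the gene of cytochrome c, had a log2 fold change of -0.42 and *Htra2* one of -0.09, and neither passed with TMM. *Cycs* was lower under library totals (-0.73), without Ctrl replicate 1 (-0.58) and with a minimum FPKM of 5 (-0.58). Both were lower with totals that leave out haemoglobin (-0.94 for *Cycs* and -0.62 for *Htra2*), with neutrophil-gene scaling (-2.25 and -1.92) and in limma with a pseudocount of 1 (-0.65 and -0.36) or 0.1 (-0.69 and -0.39).

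Of the inhibitors of apoptosis, 5 of 9 were tested. *Naip2*, of a family of copies between which reads can be divided, was higher (log2 fold change 2.13, standard error 0.208, adjusted p = 1.34e-05, edgeR), as were *Birc3*, which encodes a ubiquitin ligase of TNF signalling (0.89), and its neighbour *Birc2* (0.41). *Birc2* did not pass under library totals (0.09), nor without Ctrl replicate 3 (0.43), LIP replicate 1 (0.37) or LIP replicate 3 (0.38), with totals that leave out haemoglobin (-0.12), in limma with a pseudocount of 1 (0.10) or 0.1 (0.11) or with a minimum FPKM of 5 (0.25). *Birc6* was lower (-0.71), and the caspase inhibitor *Xiap* did not pass (0.24).

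Of the death receptor genes, 7 of 9 were tested, with 4 higher and 0 lower, beside 26.5% and 27.2% of all genes (median 0.85). The receptor *Fas* had an FPKM of 24.7 ± 2.60 in Ctrl against 61.6 ± 8.28 in LIP (mean ± SD, 3 libraries each), and the groups were far apart (log2 fold change 1.62, standard error 0.144, adjusted p = 6.79e-06, edgeR). The TNF receptor *Tnfrsf1a* (1.62), its adaptor kinase *Ripk1* (1.20) and *Cflar* (0.85), which encodes the caspase-8 brake FLIP, were higher too, though the call of *Cflar* was lost with totals that leave out haemoglobin (0.31) and in limma with a pseudocount of 1 (0.43) or 0.1 (0.53). *Casp8*, which cleaves BID, had a log2 fold change of -0.0414 and did not pass (adjusted p = 0.851, edgeR), but was lower with totals that leave out haemoglobin (-0.57) and with neutrophil-gene scaling (-1.88).

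Of the genes that control the turnover of MCL1 protein, 5 of 6 were tested. *Huwe1*, a ubiquitin ligase that marks MCL1 for degradation, was lower (log2 fold change -1.05, standard error 0.185, adjusted p = 0.000843, edgeR) at an FPKM of 1.56 ± 0.137 in Ctrl against 0.607 ± 0.0818 in LIP (mean ± SD, 3 libraries each), so it reached the minimum of 1 through Ctrl alone, and without any filter its log2 fold change was -1.01 (adjusted p = 0.00379, edgeR). *Gsk3b*, a kinase that primes MCL1 for degradation, passed with TMM (0.31, adjusted p = 0.0408, edgeR) but had the opposite sign under library totals (-0.0121), totals that leave out haemoglobin (-0.22) and limma with a pseudocount of 1 (-0.0029) or 0.1 (-0.0035). Its call was lost without Ctrl replicate 1 (0.30), Ctrl replicate 3 (0.31), LIP replicate 2 (0.30) or LIP replicate 3 (0.25), without the filter on low genes (0.34) and with a minimum FPKM of 5 (0.14). *Gsk3a* (0.68) and the ligase gene *Fbxw7* (0.25) did not pass. All 11 survival inputs were tested, with 8 higher and 1 lower, beside 26.5% and 27.2% of all genes (median 0.85). The GM-CSF receptor genes *Csf2rb* (log2 fold change 2.16, standard error 0.119, adjusted p = 3.39e-07, edgeR) and *Csf2ra* (1.63), the G-CSF receptor gene *Csf3r* (1.84), which is also on the neutrophil marker list, and the survival kinase gene *Pim1* (1.48) were higher. *Trp53*, the gene of p53, which drives *Bbc3*, *Pmaip1* and *Bax* in many cells, was the 1 lower (log2 fold change -1.31, standard error 0.134, adjusted p = 1.91e-05, edgeR).

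The genes whose pattern over the 6 libraries was most like a member were found by the Euclidean distance of log2(CPM + 0.5), centred on each gene's mean. For *Mcl1* they were *Ppp1r2* (distance 0.0458, log2 fold change 1.42), *Ptpre* (distance 0.103, log2 fold change 1.35) and *Pak1* (distance 0.104, log2 fold change 1.46). For *Bcl2l1* they included *Mirt1* (distance 0.108, log2 fold change 1.18) and *Atp6v0d1* (distance 0.119, log2 fold change 1.07). For *Bcl2* they were *Pik3ip1* (distance 0.265, log2 fold change -1.66), *Gpr183* (distance 0.267, log2 fold change -1.77) and *Nop56* (distance 0.279, log2 fold change -1.62). The nearest genes of *Bcl2* lay further from it than those of *Mcl1* and *Bcl2l1* did from them, and with groups of 3 libraries the distance reflects mostly the difference between groups.

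RefSeq promoter windows of 300 bases (GRCm38.p6) were found for all 10 genes, 13 in total, and searched on both strands. The letters TTCNNNGAA, bound by STAT proteins and present in 8.30% of 32851 windows of the same length, and TGACGTCA, bound by CREB and present in 1.79%, were in none of the 13, which says only that these letters are not in these windows.

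Markers of other cell types moved between the same groups, where 26.5% of all genes were higher and 27.2% lower with TMM, and their part in the Bcl2 family results was not tested. The 15 B cell genes, all lower in LIP, summed to 19798, 22015 and 20525 in Ctrl and 4064, 4055 and 4085 in LIP (CPM). The 16 T cell genes, all lower, of which 3 (*Cd4*, *Cd5* and *Cd8a*) reached the minimum through Ctrl alone, with *Cd2* the most abundant (FPKM 151 ± 21.7 and 33.6 ± 2.22), summed to 1127, 1238 and 1130.2 in Ctrl and 311, 296 and 271 in LIP. The 12 erythroid genes, of which 9 were tested and all 9 lower, 2 of them (*Slc4a1* and *Tfrc*) having reached the minimum through Ctrl alone, summed to 129550.2, 137774 and 135152 in Ctrl and 18299, 17562 and 17576 in LIP, led by *Hba-a1* (FPKM 61984 ± 5674 and 7182 ± 203). The 5 genes that passed through Ctrl alone were lower without any filter as well, and leaving them out 13 of 13 T cell genes (median -2.29) and 7 of 7 erythroid genes (median -2.92) were lower. In these 3 lists every Ctrl library was far above every LIP library, and *Klf1* had no read in LIP. The 22 mature neutrophil genes, all higher (median 1.87), summed to 16694, 19065 and 18213 in Ctrl and 63661, 67149 and 62446 in LIP. The 8 platelet genes, all higher (median 1.23), with *Ppbp* the most abundant (FPKM 434 ± 69.7 and 826 ± 73.2), summed to 963, 1165 and 1132 in Ctrl and 2479, 2439 and 2901 in LIP. Of 12 monocyte and dendritic cell genes, 11 were tested and 10 higher (median 1.06), with a sum of 1636, 1337 and 1521 in Ctrl and 2762, 2699 and 2577 in LIP, and *Nr4a1*, the most abundant, is also made by other activated leukocytes (FPKM 265 ± 40.2 and 318 ± 17.1). In these lists the LIP libraries were the higher with TMM, without overlap. Of 8 NK cell genes 2 were higher (median 0.30), with a sum of 355, 425 and 379.7 in Ctrl and 453, 478 and 461 in LIP, led by *Gzma* (FPKM 165 ± 24.0 and 154 ± 11.3). Of 10 eosinophil and basophil genes 7 were tested, 2 higher and 1 lower (median 0.66), the lower 1 (*Il5ra*) having reached the minimum through 1 group alone, with a sum of 52.4, 35.9 and 45.5 in Ctrl and 66.9, 67.4 and 77.5 in LIP, led by *Siglecf* (FPKM 3.38 ± 0.925 and 7.40 ± 1.25). No defining marker with a row in the table was at 0 reads in all 6 libraries. Among the Bcl2 family genes, the log2 fold changes of *Mcl1* (1.39), *Bcl2l1* (1.13) and *Bid* (1.11) lay below the median of the mature neutrophil genes under the same scaling. That list ran from 0.39 to 2.51, and the 3 genes lay above its *Camp* (0.39), *Ngp* (0.81) and *Ltf* (0.91) but below its other genes. The log2 fold change of *Bcl2* (-1.72) lay above the medians of the erythroid, T cell and B cell lists.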

How the data were processed

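The deposited table holds counts and FPKM per gene and library, both made by the authors, the counts unscaled and the FPKM scaled by gene length and depth. Libraries were sequenced paired-end with 150-base reads. The submitters' processing notes name cutadapt 1.9, FastQC and GRCm38, and the aligner, counting tool and use of strand are not given in the sources used here. From the counts, edgeR 4.0.16 (R 4.3.3) fitted the quasi-likelihood test with TMM to the 10440 genes whose FPKM averaged 1 or more over 6 libraries, with Benjamini-Hochberg adjustment over all of them and no replicate block. Where a gene name has several rows, as 50 names have, the row of highest mean FPKM took the name. CPM are counts relative to TMM-scaled library size, as edgeR gives them. Alternatives used library totals, totals without haemoglobin genes, median-of-ratios factors, scaling on 22 mature neutrophil genes, DESeq2 1.42.0, limma 3.58.1 on log2(FPKM + 1) or log2(FPKM + 0.1), other filters, *Bcl2a1* copies summed, a replicate block and each library left out. The scripts were tested on simulated data.

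Total counts ran from 52186555 to 57262379. Between libraries of the same group, chi-square per gene was 51.9 to 126, above the sampling noise of 1. Reads carry no molecular identifiers, so limits at a count of 0 cover counting error only. The members and lists were chosen with earlier results of these data known. Named were the 10 members, from each pathway list the 3 most abundant and the 2 most changed tested genes, some pathway genes whatever their values, the 3 genes most like *Mcl1*, *Bcl2* and *Bcl2l1*, and the most abundant gene of each marker list. *Apaf1*, *Diablo*, *Birc6*, *Ripk1*, *Trp53* and *Bcl2a1c* fall outside this rule and were named after their values had been seen, as were marker genes that reached the minimum through 1 group alone, and some genes that the rule takes are not reported. Sequences are from GENCODE M21 transcripts and promoter windows from RefSeq. The letters searched for NF-kappaB are in no source used here, so its matches are not reported.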

Additional observations from a re-analysis of the deposited data

How the results depend on the processing

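The count of Bcl2 family genes called, 8, was 5 with library totals (6065 of all 10440 genes), with totals that leave out haemoglobin genes (6580 of 10440) and without a filter on low genes (4614 of 29097), and 5 to 7 with each library left out in turn. The 6 higher became 3 with either kind of library total and 0 with neutrophil-gene scaling, and ran from 4 to 6 with a library left out. The 2 lower became 9 with neutrophil-gene scaling, where 88.6% of all genes were lower. They became 1 without a filter on low genes and 1 with filterByExpr, and ran from 1 to 2 with a library left out. Shares of all genes by direction are given here only for TMM and, for lower, for neutrophil-gene scaling. The other counts by direction, here and below, thus have no background beside them and are not results about the members or the pathway genes. The 29 pathway genes called ran from 26 to 28 with a library left out. Of these, the 22 higher became 0 with neutrophil-gene scaling (20 to 21 with a library left out), and the 7 lower became 12 with library totals, 17 with totals without haemoglobin, 39 with neutrophil-gene scaling, 12 in limma with either pseudocount and 4 without a filter (6 to 8 with a library left out). Over all genes, 5601 calls became 9305 with neutrophil-gene scaling, 3637 with a mean FPKM of at least 5, where fewer genes are tested, and 4674 to 5385 with a library left out, where fewer samples enter. Neutrophil-gene scaling turned the sign of *Mcl1* (-0.45), *Bcl2l1* (-0.71), *Bcl2a1a* (-1.21), *Bcl2a1b* (-1.23), *Bcl2a1d* (-1.47), *Bcl2l11* (-1.36), *Bid* (-0.73), *Bad* (-0.94), *Pmaip1* (-0.65), *Bmf* (-1.64), *Bnip3* (-0.28), *Apaf1* (-0.68), *Casp9* (-1.06), *Xiap* (-1.61), *Birc2* (-1.43), *Birc3* (-0.96), *Fas* (-0.22), *Tnfrsf1a* (-0.22), *Ripk1* (-0.65), *Cflar* (-1.005), *Fbxw7* (-1.58), *Gsk3a* (-1.15), *Gsk3b* (-1.53), *Csf3r* (-0.0165), *Csf2ra* (-0.21), *Pim1* (-0.36), a shift its construction brings to every gene. Totals without haemoglobin turned *Bcl2a1d* (-0.16), *Bcl2l11* (-0.0397), *Bmf* (-0.31), *Xiap* (-0.29), *Birc2* (-0.12), *Fbxw7* (-0.27), *Gsk3b* (-0.22), library totals turned *Bmf* (-0.11), *Xiap* (-0.0806), *Fbxw7* (-0.0652), *Gsk3b* (-0.0121), and limma turned *Bmf* (-0.0631), *Xiap* (-0.0465), *Fbxw7* (-0.0353), *Gsk3b* (-0.0029) with a pseudocount of 1 and *Bmf* (-0.0943), *Xiap* (-0.0651), *Fbxw7* (-0.0468), *Gsk3b* (-0.0035) with 0.1. With 1 library left out, the sign turned for *Bmf* without LIP replicate 1 (range -0.0062 to 0.38), for *Htra2* without Ctrl replicate 2 (range -0.17 to 0.0125) and for *Casp8* without Ctrl replicate 3 or LIP replicate 1 (range -0.13 to 0.0948). Sign changes of genes that were not called, among them *Bcl2a1d*, are included here. The cause of the other changes was not tested. Of 105 values of the 9 members under settings other than a left-out library, 80 kept sign and side of the threshold, 16 lost the call with the same sign and 9 changed sign. Of 54 with a library left out, 43 kept both and 11 lost the call. Same-numbered libraries of the groups come from different mice, their deviations correlated by 0.0135, 0.05 and 0.0302, and not every library correlated best with its own number. With a replicate block, 8 members (6 higher, 2 lower), 29 pathway genes (22 higher, 7 lower) and 5546 genes in all were called.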
